A study of Rattus norvegicus with 20 samples.

Results

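The 9 genes described here encode transcriptional regulators of the circadian clock and its output: Dbp, Tef, Hlf, Nfil3, Nr1d1, Nr1d2, Ciart, Bhlhe40 and Bhlhe41. They were taken by symbol from a table of 32883 rat genes, in which each symbol named 1 gene. All 9 passed the filter on low counts, as did 15272 genes in all. Their levels were followed in the hippocampus of 20 Gunn rat pups killed at postnatal day 6, with 5 pups in each of 4 groups: light-treated jj, light-treated Nj, untreated jj and untreated Nj. The strain carries a loss-of-function mutation of Ugt1a1, the liver enzyme that conjugates bilirubin. Pups homozygous for it (jj) are jaundiced and heterozygous pups (Nj, spelled Jj in a second label) are not, so every pup carried at least 1 mutant allele. Treated pups had intermittent LED phototherapy, the light given against neonatal jaundice, from day 4 through day 6 for 12 h in total, as 3 h on and 3 h off in the daytime. The hour at which pups were killed, their litters and their sexes are not given in the sources used here. With no word on litters, p-values measure the spread between these samples.

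In the mammalian clock, CLOCK and BMAL1 (the product of Arntl) bind E-box letters and switch on Per, Cry and most of the genes described here. Nfil3 is driven instead through RORE letters, where ROR proteins activate and REV-ERB proteins repress. DBP, TEF and HLF, the PAR bZIP family, then activate genes through D-box letters, and NFIL3 (E4BP4) represses from the same letters. The nuclear receptors REV-ERB alpha and beta (Nr1d1 and Nr1d2) repress Arntl and Clock, while CIART (CHRONO), DEC1 (Bhlhe40) and DEC2 (Bhlhe41) repress CLOCK and BMAL1 at E-boxes. In adult rodent tissues most of these transcripts swing over the day, with Dbp and Nr1d1 among the widest swings. In bulk tissue, fewer cells of a type and less RNA per cell cannot be told apart.

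The windows printed below are the 250 bases before the annotated start of the 4 genes that rose with light when both genotypes were averaged, and of Ciart, whose untreated Nj levels lay apart. They are written 5′ to 3′ on the gene's strand from RefSeq's rat assembly GRCr8, with the E-box letters CACGTG in capitals. Of the 2 windows RefSeq gives for Nr1d1, the one that holds an E-box is shown.
Dbp (chr1:105312006-105312255, plus strand): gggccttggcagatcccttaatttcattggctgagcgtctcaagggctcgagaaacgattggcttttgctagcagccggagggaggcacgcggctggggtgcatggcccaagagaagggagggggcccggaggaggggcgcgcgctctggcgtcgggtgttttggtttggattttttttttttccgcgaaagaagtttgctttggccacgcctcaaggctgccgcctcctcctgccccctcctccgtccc
Tef (chr7:115206577-115206826, plus strand): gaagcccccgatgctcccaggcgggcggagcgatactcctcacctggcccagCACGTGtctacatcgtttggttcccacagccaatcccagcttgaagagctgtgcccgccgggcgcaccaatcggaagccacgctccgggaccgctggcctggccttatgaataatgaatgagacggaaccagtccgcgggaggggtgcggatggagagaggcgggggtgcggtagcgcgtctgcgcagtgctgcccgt
Nr1d1 (chr10:84229455-84229704, minus strand): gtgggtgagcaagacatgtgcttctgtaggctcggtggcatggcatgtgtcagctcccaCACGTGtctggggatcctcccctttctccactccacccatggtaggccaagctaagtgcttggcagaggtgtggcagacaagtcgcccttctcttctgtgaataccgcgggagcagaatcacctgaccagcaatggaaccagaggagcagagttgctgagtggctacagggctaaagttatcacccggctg
Nr1d2 (chr15:9954784-9955033, plus strand): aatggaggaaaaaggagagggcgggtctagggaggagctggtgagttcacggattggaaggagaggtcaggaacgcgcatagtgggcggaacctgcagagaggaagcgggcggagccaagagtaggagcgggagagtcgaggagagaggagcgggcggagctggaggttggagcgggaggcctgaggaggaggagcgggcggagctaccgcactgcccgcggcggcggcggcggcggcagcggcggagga
Ciart (chr2:186112247-186112496, minus strand): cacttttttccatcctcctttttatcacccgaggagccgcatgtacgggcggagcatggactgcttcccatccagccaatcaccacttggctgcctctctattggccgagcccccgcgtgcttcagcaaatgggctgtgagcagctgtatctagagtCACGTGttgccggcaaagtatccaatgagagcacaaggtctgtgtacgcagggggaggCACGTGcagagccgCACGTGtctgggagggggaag

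Promoter windows were matched for 8 of the 9 members, all but Hlf, and CACGTG (its own reverse complement) stood in the 250 bases before the start of 5 of those 8: Tef, Nr1d1, Ciart, Bhlhe40 and Bhlhe41. Of all 33469 windows in the RefSeq table, 5.59% held it. The members' 5 windows with it were 54.7% to 72.7% G or C over 300 bases, beside a median of 51.7% for all windows. The share was not matched for this. Ciart held 3 copies, whose first letters lay 93, 35 and 21 bases before the start. Tef held 1 copy at 198 bases, Nr1d1 1 at 191 in the window shown, Bhlhe40 1 at 220 and Bhlhe41 1 at 48. The windows of Dbp and Nr1d2 showed none, nor did that of Nfil3 or the other window of Nr1d1, so that 5 of the 9 windows held these letters. The D-box letters TTATGTAA and TTACGTAA, searched on both strands over 300 bases (with 50 after the start), stood in 0.893% and 0.12% of all windows and in 0 of the members' windows. The RORE cores TAGGTCA and TGGGTCA, letters that REV-ERB proteins bind, stood in 2.63% and 4.09% of all windows and likewise in 0 of the members'. These matches describe letters and not binding.

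Libraries held 16882652 to 27112749 counts. Hippocampal neuron markers were present in every library (10 of 10 above a mean of 1 CPM, the count per M, with M for mega, of the TMM-scaled library, and summing to 1576 to 2155 CPM). Ttr, a transcript abundant in the adjoining choroid plexus, spanned 3.57 to 9662 CPM, and passed 1000 CPM in 3 light-treated jj, 2 light-treated Nj, 1 untreated jj and 1 untreated Nj libraries. Titles carry a prefix of unstated meaning: J18 in both treated groups, J17 in untreated jj pups, and J13, J14 and J15 (1, 1 and 3 pups) in untreated Nj pups. No prefix holds both treated and untreated pups, so prefix and light cannot be told apart, and within-prefix values exist for the comparison of treated jj with treated Nj pups alone.

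**Figure D1:**
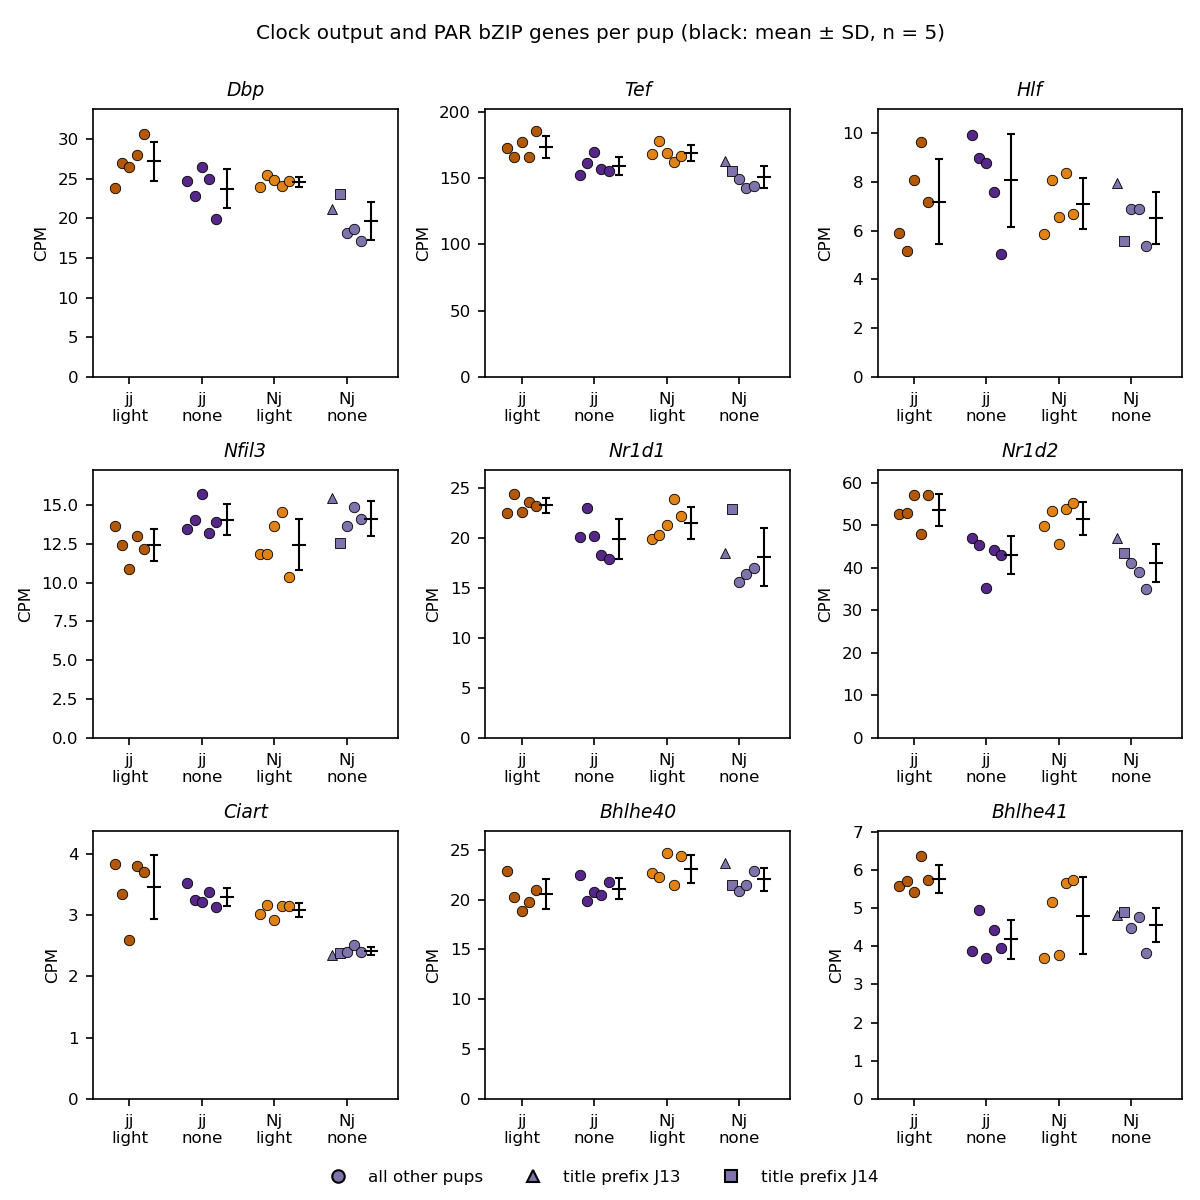
Level of each of the 9 genes in every pup, in CPM on axes that start at 0, for light-treated and untreated jj and Nj pups. Each point is a pup, black marks are the mean ± SD of 5 pups, and triangles and squares are the J13 and J14 pups. Nr1d2 stands higher in both treated groups, and Ciart lowest in the 5 untreated Nj pups (2.35 to 2.52 CPM).

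The comparison of light-treated with untreated pups asks how hippocampal transcripts differ with phototherapy in each genotype. The hour of killing is not given, so light and any difference in that hour cannot be told apart. In Nj pups Nr1d2, Dbp and Tef rose, by log2 fold changes of 0.33, 0.32 and 0.16, and 0 members fell. In jj pups the same contrast called 0 of the 9, although Nr1d2 had nearly the same fold change there (log2 0.32, against 0.33 in Nj pups). Averaged over both genotypes, Nr1d2, Tef, Dbp and Nr1d1 rose. Below, fold changes are log2 values of treated over untreated pups with their SE, and adjusted p comes from the quasi-likelihood test of edgeR, adjusted by Benjamini-Hochberg over all 15272 genes.

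Dbp (ENSRNOG00000021027, 356 to 654 reads per library) encodes the PAR bZIP activator with the widest daily swing in rodent liver. It had 24.0, 25.4, 24.9, 24.0 and 24.8 CPM in light-treated Nj pups, against 21.2, 23.1, 18.2, 18.7 and 17.1 CPM in untreated Nj pups. The lowest treated Nj pup stood above the highest untreated one, and the treated pups varied little (SD 0.612 CPM, against 2.42 CPM untreated, n = 5 each). That is less than counting alone gives: the treated pups' coefficient of variation was 2.49%, against 4.39% from the read numbers. The fold change was 0.32 (SE 0.08, adjusted p = 0.0323 by edgeR's quasi-likelihood test). In jj pups Dbp had 23.8, 27.1, 26.5, 28.0 and 30.7 CPM with light, against 24.7, 22.9, 26.4, 24.9 and 19.9 CPM without. Here the ranges overlapped, since the lowest treated jj pup lay below 3 of the 5 untreated ones, although 4 of 5 treated pups lay above all of them. The change in jj pups, 0.19 (SE 0.08, 95% interval 0.02 to 0.37), did not pass (edgeR adjusted p = 0.326). Averaged over genotypes Dbp rose by 0.26 (SE 0.06, edgeR adjusted p = 0.00760).

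Tef (ENSRNOG00000019383, 2719 to 4413 reads) encodes a PAR bZIP activator with a flatter daily profile. It had 168, 178, 169, 162 and 167 CPM in light-treated Nj pups, against 163, 156, 149, 143 and 144 CPM in untreated Nj pups. The groups met at a single pair: the J13 untreated pup (163 CPM) stood just above the lowest treated pup (162 CPM). Tef had the least spread of the members, its highest pup standing 1.30 times above its lowest over all 20, and a change of 0.16 in Nj pups (SE 0.04) passed (edgeR adjusted p = 0.0398), but not with no filter on low counts (0.16, edgeR adjusted p = 0.0680). In jj pups it had 173, 166, 177, 166 and 185 CPM with light, against 152, 161, 170, 156 and 155 CPM without, and 3 of 5 treated pups stood above every untreated one. That change was 0.13 (SE 0.04, edgeR adjusted p = 0.214), and the average over genotypes 0.14 (SE 0.03, edgeR adjusted p = 0.00524).

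Hlf (ENSRNOG00000002456, 107 to 213 reads), the third PAR bZIP activator, and Nfil3 (ENSRNOG00000011668, 213 to 413 reads), the repressor at the same D-box letters, did not pass in either genotype. Hlf spread widely within groups, from 5.18 to 9.61 CPM in light-treated and from 5.02 to 9.93 CPM in untreated jj pups. Its change was 0.12 (SE 0.17) in Nj and -0.16 (SE 0.17) in jj pups (edgeR adjusted p = 0.777 and 0.730). In the RefSeq annotation Hlf overlaps a non-coding gene, LOC134480714, and the strand setting of the counting is not given in the sources used here. Nfil3 was the member whose values lay lower with light in both genotypes. It had 11.9, 11.8, 13.6, 14.5 and 10.3 CPM in treated Nj pups, against 15.4, 12.5, 13.6, 14.9 and 14.1 CPM in untreated Nj pups, and the groups overlapped. In jj pups its range was 10.9 to 13.6 CPM with light, against 13.2 to 15.7 CPM without, with 4 of 5 treated pups below all untreated ones. Its change was -0.18 (SE 0.09) in each genotype (edgeR adjusted p = 0.279 in Nj and 0.403 in jj pups) and -0.18 (SE 0.06) averaged, which missed the threshold (edgeR adjusted p = 0.0701).

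Nr1d2 (ENSRNOG00000046912, 650 to 1345 reads) encodes REV-ERB beta, and it had the lowest p of the members in both genotypes and averaged. Light-treated Nj pups had 49.9, 53.4, 45.5, 53.9 and 55.2 CPM, against 46.9, 43.5, 41.0, 39.0 and 35.1 CPM in untreated Nj pups. Only the J13 untreated pup (46.9 CPM) reached into the treated range, above 1 treated pup. The change was 0.33 (SE 0.08, edgeR adjusted p = 0.0231). Light-treated jj pups had 52.7, 52.8, 57.2, 48.1 and 57.1 CPM, against 47.1, 45.5, 35.4, 44.2 and 43.0 CPM in untreated jj pups. These groups did not overlap, and yet the change, 0.32 (SE 0.08), did not pass in edgeR (adjusted p = 0.0896), where 25 genes were called in jj pups. DESeq2's Wald test, run on the same genes, did call it in jj pups (0.32, adjusted p = 0.0167). Averaged over genotypes Nr1d2 rose by 0.32 (SE 0.06, edgeR adjusted p = 0.00110), and 9 of the 10 treated pups stood above every untreated one.

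Nr1d1 (ENSRNOG00000009329, 313 to 585 reads) encodes REV-ERB alpha. It had 19.9, 20.3, 21.3, 23.9 and 22.3 CPM in light-treated Nj pups, against 18.5, 22.9, 15.6, 16.4 and 17.1 CPM in untreated Nj pups. The J14 untreated pup, at 22.9 CPM, stood above 4 of the 5 treated pups, whereas the other untreated pups lay below all of them. The change of 0.25 (SE 0.09) did not pass in Nj pups (edgeR adjusted p = 0.117). Light-treated jj pups had 22.5, 24.4, 22.6, 23.6 and 23.3 CPM, against 20.1, 23.0, 20.2, 18.3 and 17.9 CPM in untreated jj pups, a change of 0.23 (SE 0.09, edgeR adjusted p = 0.273). With both genotypes averaged Nr1d1 rose by 0.24 (SE 0.06, edgeR adjusted p = 0.0177). Nr1d1 overlaps Thra, the thyroid hormone receptor alpha gene on the opposite strand, and without the strand setting reads of the overlap cannot be told apart. Thra itself had a change of -0.05 averaged over genotypes and did not pass (edgeR adjusted p = 0.312).

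Ciart (ENSRNOG00000042717), the CHRONO repressor, had the lowest counts of the members, 48 to 98 reads per library. It had 3.02, 3.17, 2.92, 3.15 and 3.16 CPM in light-treated Nj pups, against 2.35, 2.39, 2.40, 2.52 and 2.41 CPM in untreated Nj pups. The ranges lay well apart, but the change of 0.35 (SE 0.11) missed the threshold (edgeR adjusted p = 0.0829). The untreated Nj pups differed from one another by less than counting alone gives: their coefficient of variation was 2.62%, against 13.4% from the read numbers. The same held for treated Nj pups (3.56%, against 12.4%) and untreated jj pups (4.69%, against 12.6%), whereas treated jj pups spread by 15%, against 11.6%. Light-treated jj pups had 3.84, 3.34, 2.60, 3.80 and 3.71 CPM, against 3.53, 3.24, 3.21, 3.37 and 3.13 CPM in untreated jj pups. A single treated jj pup (2.60 CPM) lay below every untreated jj pup and 3 lay above all of them, and the change was 0.07 (SE 0.11, edgeR adjusted p = 0.832).

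Bhlhe41 (ENSRNOG00000048961, 68 to 142 reads) encodes DEC2 and Bhlhe40 (ENSRNOG00000007152, 337 to 633 reads) encodes DEC1, a closely related pair of E-box repressors. Bhlhe41 had 5.56, 5.71, 5.41, 6.37 and 5.72 CPM in light-treated jj pups, against 3.87, 4.95, 3.70, 4.43 and 3.96 CPM in untreated jj pups. Every treated jj pup stood above every untreated one, and the change, 0.46 (SE 0.13), was the widest of any member in any of these comparisons, but it did not pass (edgeR adjusted p = 0.120). The treated jj pups varied by less than counting alone gives (coefficient of variation 6.39%, against 9.04%). In Nj pups the treated values split, with 3 pups at 5.15, 5.65 and 5.74 CPM above and 2 at 3.69 and 3.76 CPM below all untreated pups (3.82 to 4.90 CPM). The change there was 0.07 (SE 0.13, edgeR adjusted p = 0.820), and the average over genotypes 0.27 (SE 0.09, edgeR adjusted p = 0.0608), which DESeq2 called (0.27, adjusted p = 0.0411). Bhlhe40 differed little with light: 21.4 to 24.6 CPM in treated and 20.9 to 23.6 CPM in untreated Nj pups, and 18.8 to 22.8 CPM in treated and 19.9 to 22.5 CPM in untreated jj pups. Its averaged change was 0.01 (SE 0.04, 95% interval -0.08 to 0.11).

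**Figure D2:**
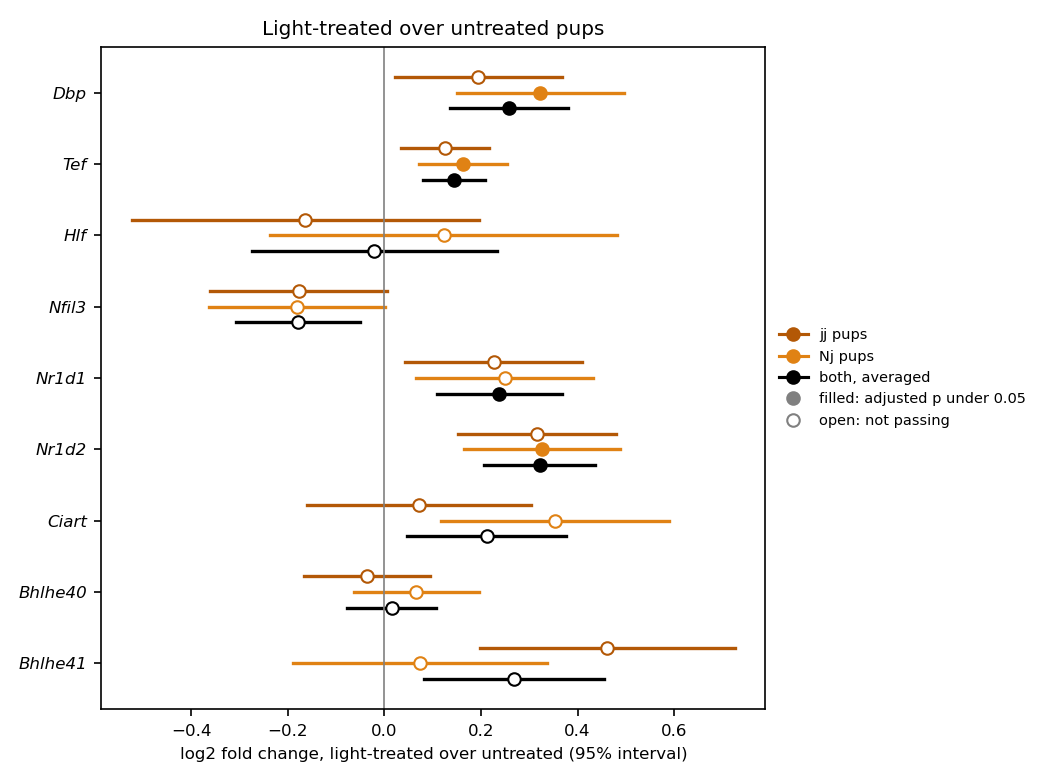
Log2 fold change of each gene in light-treated over untreated pups, with 95% intervals, in jj pups, in Nj pups and averaged over both. Filled points passed an adjusted p of 0.05: Dbp, Tef and Nr1d2 in Nj pups, and these 3 with Nr1d1 in the average.

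In Nj pups 3 of 9 members rose, where 1.49% of the 15272 genes did and 4% were called in either direction. At an unadjusted p under 0.05 there were 5 of 9, all higher, where 8.25% of genes were higher at that level and 18.1% were in either direction. The members' median change was 0.16 and that of all genes 0.00. In jj pups 0 of 9 were called by edgeR, where 0.164% of genes were. There, 5 of 9 were higher at an unadjusted p under 0.05, against 5.64% of genes, and the members' median was 0.13. In the average over genotypes 4 of 9 rose, where 4.35% of genes rose and 10.1% were called. Ranges that did not overlap, with the treated pups higher, were seen for 2 members in Nj pups (Dbp and Ciart), against 3.07% of genes, and for 2 in jj pups (Nr1d2 and Bhlhe41), against 1.27% of genes. The members were chosen with earlier results of these data known, so these shares are a description and not a test of the set.

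The difference between the genotypes' light responses was tested as an interaction. Of all 15272 genes 0 passed edgeR's quasi-likelihood test, 0 passed DESeq2, and 3.41% had an unadjusted p under 0.05. Among the members 1 did, Bhlhe41, whose change was greater in jj pups by 0.39 (SE 0.18, unadjusted p = 0.0421, adjusted p = 1.00). The other 8 ranged from -0.29 to 0.00. Among the listed clock genes Fbxl21, which encodes an F-box protein that acts on CRY proteins, had the lowest p (0.22, SE 0.10, unadjusted p = 0.0462, edgeR adjusted p = 1.00). With no gene past the threshold, calls in Nj and not in jj pups are not shown to be a difference between genotypes.

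Untreated Nj pups of different prefixes differed for some members. The J13 and J14 pups both lay above all 3 J15 pups for Dbp (21.2 and 23.1 CPM, against 17.1 to 18.7 CPM), Tef (163 and 156 CPM, against 143 to 149 CPM), Nr1d1 (18.5 and 22.9 CPM, against 15.6 to 17.1 CPM), Nr1d2 (46.9 and 43.5 CPM, against 35.1 to 41.0 CPM) and Bhlhe41 (4.81 and 4.90 CPM, against 3.82 to 4.78 CPM). These were 5 of the 9 members, where 12.8% of all genes lay so, and Hlf, Nfil3, Ciart and Bhlhe40 did not. Set against the J15 pups alone, light in Nj pups called 4 members, Nr1d1 among them (0.40, edgeR adjusted p = 0.00994), and 745 of all genes. Set against the J13 and J14 pups alone, it called 0 members and 0 of all genes, with changes of 0.16 for Dbp, 0.09 for Tef and 0.20 for Nr1d2 (edgeR adjusted p from 0.729 to 0.816). The average over genotypes then called Nr1d2 alone of the members, and 168 genes. This last alternative was chosen after seeing the data, and it kept fewer untreated Nj pups, so its power was lower. All treated pups have the prefix J18, so no choice of untreated pups tells prefix and light apart. What the prefixes contribute to the light values was not tested. Ciart did not follow this pattern: its J13 and J14 pups (2.35 and 2.39 CPM) lay below the J15 pups (2.40 to 2.52 CPM).

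**Figure D3:**
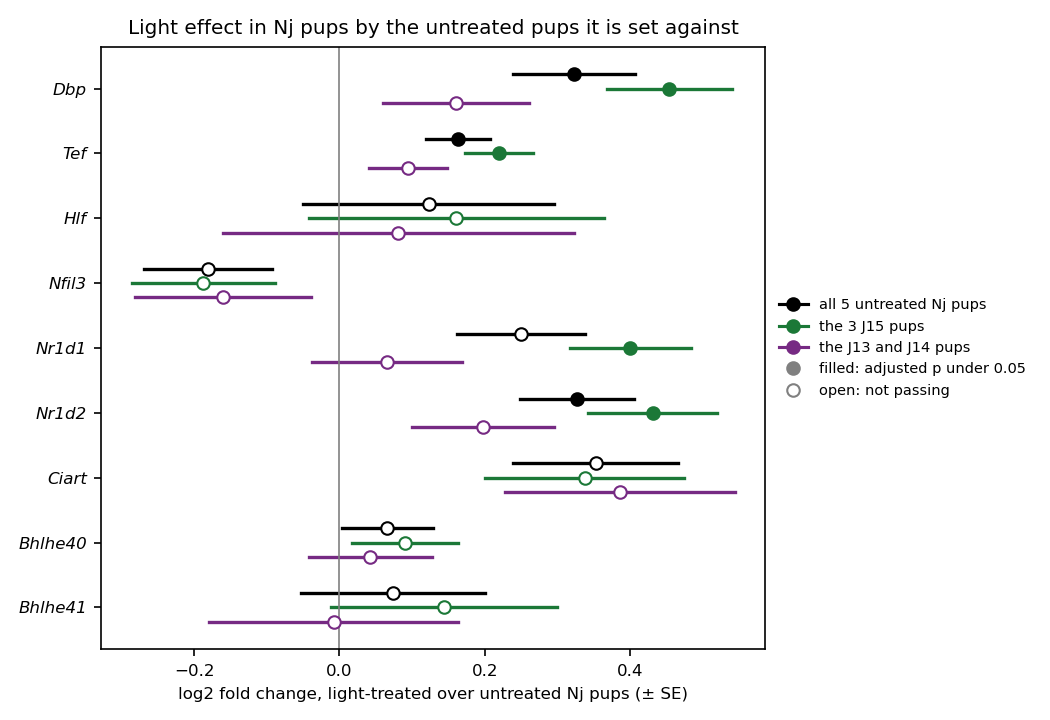
Log2 fold change (± SE) of each gene in light-treated over untreated Nj pups, with all 5 untreated pups, with the 3 J15 pups alone and with the J13 and J14 pups alone. Filled points passed an adjusted p of 0.05. Nr1d1 lies at 0.40 against J15 pups and at 0.07 against J13 and J14 pups, whereas Ciart stays between 0.34 and 0.39.

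The calls in Nj pups also rested on few libraries. Without untreated Nj pup 4 or 5, or treated Nj pup 2 or 5, 0 members were called, and without untreated Nj pup 3 1 was (highest edgeR adjusted p for Dbp 0.100, Tef 0.108 and Nr1d2 0.0809). In the fits that lost them, the changes were 0.28 to 0.32 for Dbp, 0.14 to 0.17 for Tef and 0.28 to 0.32 for Nr1d2. Tef was also lost without treated Nj pup 1, and Nr1d1 was called without untreated Nj pup 2. The 4 calls of the average over genotypes held when any of the 20 pups was left out. Summed choroid plexus markers ran from 111 to 8776 CPM in light-treated jj, 61.6 to 4584 CPM in light-treated Nj, 49.3 to 10918 CPM in untreated jj and 48.9 to 4775 CPM in untreated Nj pups. The medians of that sum were 6139 CPM in treated and 109 CPM in untreated jj pups, and 555 CPM in treated and 537 CPM in untreated Nj pups. All 11 tested markers had a change above 0 with light in both genotypes, with a median of 1.05 in jj pups, 0.41 in Nj pups and 0.73 in the average. Of the 12 markers 1, Otx2, was at 0 in at least 1 of the 20 libraries. Without the 7 libraries above 1000 CPM of Ttr, 0 members were called in Nj pups (Dbp 0.28, Tef 0.14, Nr1d2 0.28, edgeR adjusted p from 0.109 to 0.152), and in the average Tef and Nr1d2 were. The libraries left out were 3 treated jj, 2 treated Nj, 1 untreated jj and 1 untreated Nj. Power was thus lower in that fit. With Ttr as a covariate the members called were 3 in Nj pups and 4 in the average, where all genes called were 743 and 1669. Microglia markers moved with light: 3 of 5 rose in Nj pups and in the average, and their sum was 84.4 to 97.8 CPM in treated and 75.7 to 88.1 CPM in untreated Nj pups, with no marker at 0. In jj pups that sum was 89.3 to 97.2 CPM with light and 80.5 to 97.5 CPM without, and 0 of 5 passed. In the average, 2 of 5 astrocyte markers rose and 1 fell, 1 of 4 tested oligodendrocyte markers rose, 3 of 10 hippocampal neuron markers rose and 2 fell, and 0 of 5 tested meninges and 0 of 11 tested choroid plexus markers passed. Astrocyte sums were 1956 to 2152 CPM in treated and 1776 to 2068 CPM in untreated Nj pups, and 1916 to 2164 CPM in treated and 1649 to 2023 CPM in untreated jj pups. The part of these cell types in the members' values was not tested.

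Other genes of the clock were taken from lists of genes with textbook roles. Of 16 tested core clock genes, 1 rose and 3 fell with light averaged over genotypes. Timeless, which acts in replication forks and in clock regulation, had 7.27 to 8.85 CPM in treated and 9.94 to 11.9 CPM in untreated Nj pups, and 7.14 to 9.61 CPM in treated and 8.80 to 12.0 CPM in untreated jj pups. The Nj groups did not overlap, and Timeless fell by 0.44 in Nj pups (edgeR adjusted p = 0.0121) and by 0.38 in the average (edgeR adjusted p = 0.00123). In Nj pups that call was lost without untreated Nj pup 5 (-0.40, edgeR adjusted p = 0.0535), when the 7 libraries with Ttr above 1000 CPM were left out (-0.43, adjusted p = 0.0828) and against J13 and J14 pups alone (-0.38, adjusted p = 0.527). In jj pups Timeless was at -0.31 (edgeR adjusted p = 0.149). Csnk1e and Csnk1d, kinases that mark PER proteins for breakdown, fell by 0.15 and 0.09 in the average (edgeR adjusted p = 0.0117 and 0.0190). Both calls were lost when the 7 libraries with Ttr above 1000 CPM were left out (-0.15 and -0.08, edgeR adjusted p = 0.0885 and 0.170) and against J13 and J14 pups alone (-0.12 and -0.08, adjusted p = 0.155 and 0.202). Csnk1d was lost too without untreated Nj pup 5 or treated jj pup 5 (edgeR adjusted p = 0.0519 and 0.0527). Clock, the partner of BMAL1 and a gene that REV-ERB proteins repress in liver, rose by 0.17 in the average (edgeR adjusted p = 0.0160), a call lost against J13 and J14 pups alone (0.17, adjusted p = 0.151). Its ranges in Nj pups, 72.0 to 76.8 CPM with light and 63.8 to 67.6 CPM without, did not overlap, and its changes within Nj (0.19) and jj pups (0.15) did not pass (edgeR adjusted p = 0.0908 and 0.295). Arntl and Per2 did not pass: Arntl changed by -0.07 (edgeR adjusted p = 0.300) and Per2 by 0.03 (edgeR adjusted p = 0.642).

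Among 8 tested targets of the PAR bZIP factors 0 rose and 1 fell in the average, Por, the electron donor of microsomal cytochromes (-0.11, edgeR adjusted p = 0.0495). Among 6 tested genes that REV-ERB proteins repress, 1 rose (Clock) and 0 fell. Among 9 tested genes that E-boxes drive, 1 rose, Usp2, a deubiquitinase (0.23, edgeR adjusted p = 0.0459), and 0 fell. Por and Usp2 lie near the threshold and were lost in most fits without 1 pup. Within genotypes the genes of these lists with the lowest p did not pass: Por (-0.15) and Per3 (0.23) in Nj pups (edgeR adjusted p = 0.102 and 0.159), and Per1 (-0.15) and Usp2 (0.28) in jj pups (edgeR adjusted p = 0.420 and 0.253). The medians of these 3 lists were 0.02, -0.03 and 0.05, beside 0.21 for the 9 members and 0.00 for all genes. Members and lists were chosen with earlier results of these data known, so these medians are a description.

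The comparison of jj with Nj pups asks how hippocampal transcripts differ with jaundice. Its untreated Nj pups are those of the light comparison in Nj pups, so the 2 sets of values share that group. In untreated pups the title prefix also differs with genotype (J17 in jj pups, and J13, J14 and J15 in Nj pups). Prefix and genotype cannot be told apart there. No member passed. In untreated pups 0 of 15272 genes were called by edgeR (6.36% had an unadjusted p under 0.05) and 1 by DESeq2. Ciart stood at rank 11 of all genes by p. Its 5 untreated jj pups (3.13 to 3.53 CPM) all lay above the 5 untreated Nj pups (2.35 to 2.52 CPM), which 0.478% of genes did, with a log2 fold change of jj over Nj of 0.45 (SE 0.11, unadjusted p = 0.000657, edgeR adjusted p = 0.775). The untreated Nj pups also lay below all 15 other pups for Ciart (2.60 to 3.84 CPM), as for 0.0393% of genes. Ciart had only 48 to 63 reads in these untreated Nj pups. They varied by less than counting alone gives (coefficient of variation 2.62%, against 13.4%). Dbp averaged 23.8 ± 2.50 CPM in untreated jj and 19.7 ± 2.42 CPM in untreated Nj pups (SD, n = 5 each), a log2 difference of 0.27 (SE 0.08, unadjusted p = 0.00373, edgeR adjusted p = 0.775). Over the alternatives that difference ran from 0.10 (against J13 and J14 pups alone) to 0.40 (against J15 pups alone), and the J13 and J14 pups lay within the jj range. The other members ranged from -0.13 (Bhlhe41) to 0.30 (Hlf, edgeR adjusted p = 0.776).

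With light, jj and Nj pups share the prefix J18, and 0 of 15272 genes were called by edgeR (6.62% at an unadjusted p under 0.05) and 1 by DESeq2. Ciart was at 3.46 ± 0.52 CPM in treated jj and 3.08 ± 0.11 CPM in treated Nj pups, a difference of 0.17 (SE 0.11, 95% interval -0.06 to 0.40). Dbp was at 27.2 ± 2.50 CPM in treated jj and 24.6 ± 0.61 CPM in treated Nj pups, a difference of 0.14 (SE 0.08, 95% interval -0.03 to 0.32). Both differences point the same way as in untreated pups, and whether they differ from those is the interaction above, which neither gene passed. Bhlhe40 had 22.8, 20.3, 18.8, 19.7 and 21.0 CPM in treated jj pups, against 22.7, 22.2, 24.6, 21.4 and 24.3 CPM in treated Nj pups. Of the treated jj pups 4 lay below every treated Nj pup, and the difference was -0.17 (SE 0.06, unadjusted p = 0.0139, edgeR adjusted p = 0.724). Bhlhe41 lay the other way, by 0.26 (SE 0.13, unadjusted p = 0.0491, edgeR adjusted p = 0.724). Of the listed clock genes Fbxl21 stood at rank 7 of all genes by p: it had 12.1, 10.8, 10.1, 10.5 and 10.2 CPM in treated jj pups, against 8.48, 9.07, 8.09, 8.70 and 9.13 CPM in treated Nj pups. All 5 treated jj pups lay above the 5 treated Nj pups, as for 0.596% of genes, and the difference was 0.31 (SE 0.07, unadjusted p = 0.000425, edgeR adjusted p = 0.713). Pdxk, Clock and Cry2 had the lowest p of the other lists, at 0.13, -0.08 and 0.08, and did not pass (edgeR adjusted p = 0.724, 0.748 and 0.724).

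The average over light takes in the untreated pups, in which prefix and genotype cannot be told apart. Averaged over light, 0 of 15272 genes were called by edgeR or DESeq2, and 11.2% had an unadjusted p under 0.05. Among the members 3 did. Ciart was higher in jj pups by 0.31 (SE 0.08, unadjusted p = 0.000791) and Dbp by 0.21 (SE 0.06, unadjusted p = 0.00193), and Bhlhe40 was lower, at -0.12 (SE 0.04, unadjusted p = 0.0155), each with an edgeR adjusted p of 0.408. For Ciart 8 of 10 jj pups stood above every Nj pup, and for Bhlhe40 6 of 10 stood below every one. Per3, a period gene counted here among the targets of the PAR bZIP factors, had the lowest p of the listed clock genes in untreated pups (0.26, unadjusted p = 0.00735, edgeR adjusted p = 0.775) and was at 0.21 in the average (unadjusted p = 0.00348, edgeR adjusted p = 0.408). Fbxl21 was at 0.20 and Per2 at 0.09 in the average (unadjusted p = 0.00111 and 0.0210, edgeR adjusted p = 0.408 and 0.414).

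**Figure D4:**
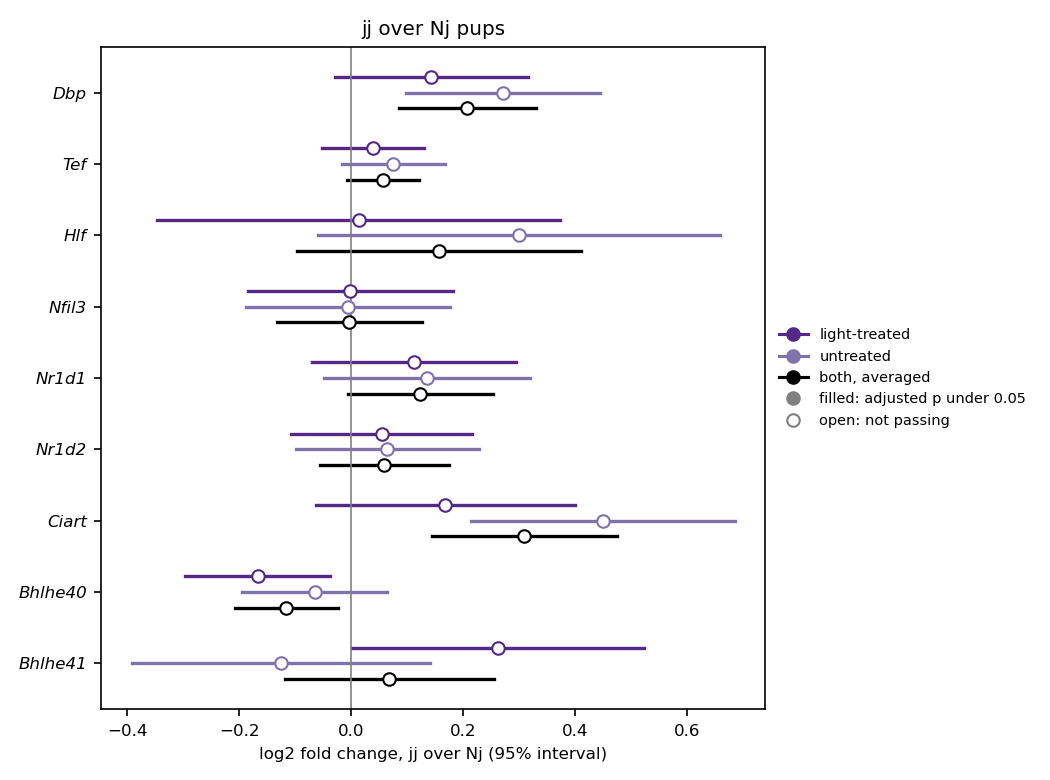
Log2 fold change of each gene in jj over Nj pups, with 95% intervals, in light-treated pups, in untreated pups and averaged over both. All points are open, since 0 passed an adjusted p of 0.05, and Ciart in untreated pups lies farthest from 0, at 0.45.

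Whether members vary together between pups of 1 group was asked on log2 CPM with each group's mean removed, over 20 pups and 36 pairs, with permutation tests of 100000 resamples. After Benjamini-Hochberg adjustment 0 pairs passed (lowest adjusted p = 0.446), and r ran from -0.41 to 0.57 with a median of 0.15 and 23 pairs positive. The pairs with the highest r were Dbp with Tef (r = 0.57, permutation p = 0.0302, rho = 0.53, permutation p = 0.0496) and Nr1d2 with Bhlhe41 (r = 0.53, permutation p = 0.0190, rho = 0.44, permutation p = 0.0652). Without the 2 pups farthest from the median of the first gene named, r was 0.57 and 0.40. Nfil3 with Nr1d2 had the lowest r, -0.41 (permutation p = 0.0795, rho = -0.52, permutation p = 0.0292). Without removing group means 11 pairs passed, since the groups' own differences then enter. Removing them leaves the prefix differences among untreated Nj pups in the values. Without the untreated Nj pups 0 pairs passed. Over the alternatives r for Dbp with Nr1d1 ran from 0.19 to 0.79, where 0.79 is the value with the group means kept. With the means removed r was 0.52 over the 20 pups, and 0.23 without the 2 pups farthest from the median of Dbp.

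**Figure D5:**
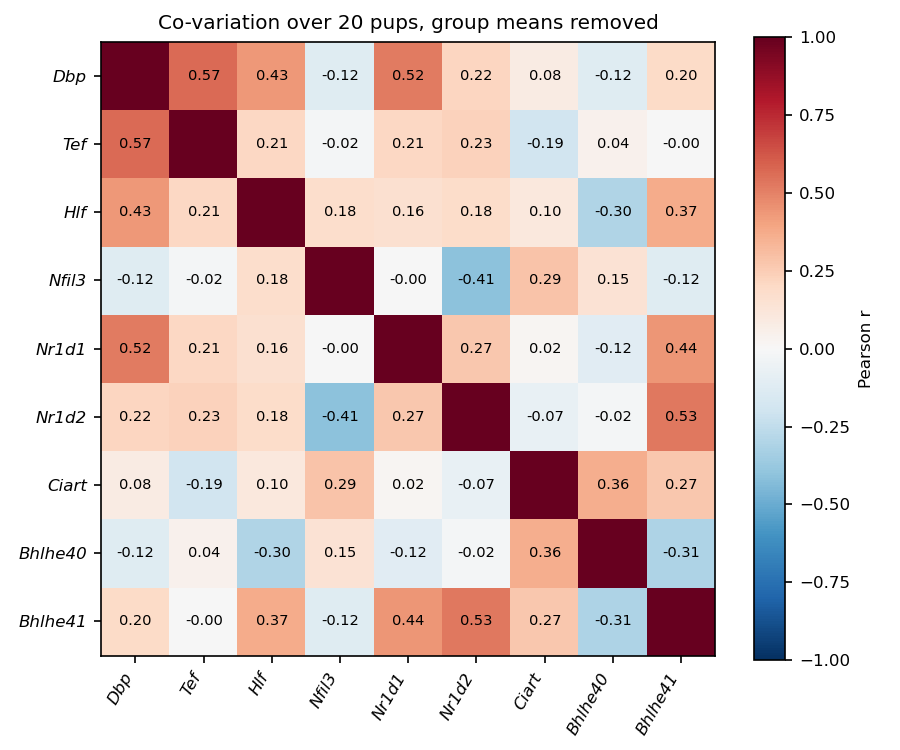
Pearson r between members over 20 pups, on log2 CPM with group means removed. Red is positive and blue negative, on a scale from -1 to 1. Dbp with Tef has the highest value, 0.57, and Nfil3 with Nr1d2 the lowest, -0.41.

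The genes most like Dbp by the same measure, among 12740 named genes with a mean of at least 1 CPM over the 20 libraries, were Traf3ip2 (r = 0.78), Alas2 (0.76), Baz1a (0.76), Dnajc28 (0.75) and Chi3l1 (0.75). Of the clock genes listed, Per3 stood at rank 25 (r = 0.69). Tef stood at rank 186 and Nr1d1 at rank 324 (r = 0.52), and Arntl and Clock had negative values (-0.22 and -0.21). All these values share libraries and depth, hold the prefix differences among untreated Nj pups, and are given as a description.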

How the data were processed

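Per the labels, polyA RNA of 1 hippocampal lobe per pup was made into Illumina TruSeq libraries. The deposited table holds the authors' raw read counts per rat Ensembl gene, not normalised; 0 of its sample columns were left unused. Per the submitters' processing notes, the tools were FastQC, TopHat2 2.0.13, Subread and edgeR. The notes name the mouse build mm10 while the identifiers are of rat; the rat build and the strand setting are not given in the sources used here. The design text gives n = 6 for untreated pups in 1 place, and 5 per group were analysed.

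From the counts, edgeR 4.0.16 (R 4.3.3) filtered genes with filterByExpr, scaled by TMM and fitted all 20 libraries together by robust quasi-likelihood, each group having its own mean (legacy estimates, 16 residual degrees of freedom before moderation). Tests of the 7 contrasts were two-sided F-tests, and the threshold was a Benjamini-Hochberg adjusted p of 0.05. CPM used TMM-scaled library sizes, and log2 CPM a prior count of 2. DESeq2 1.42.0 was run on the same 15272 genes. The pipeline was run on simulated counts without prefix or choroid plexus differences, a check of the code and not of the calls made here. No pair of libraries of a group agreed within sampling noise (lowest chi-square per degree of freedom 3.22). The fewest reads in any library were 48 for Ciart and 2719 for Tef, so counting error differs widely between members.

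Samples were grouped by the genotype and treatment labels. The members and lists were chosen with earlier results of these data known. All 9 members, Arntl and Per2 were named in the comparisons; from each context list up to 4 genes past the threshold with the lowest p, or the gene with the lowest p, and the 5 genes most like Dbp. For 2 comparisons (jaundice averaged, interaction) the members named are those at an unadjusted p under 0.05, with the context genes of the same rule. Alternatives were DESeq2's size factors and test, no filter, a mean count of at least 10, newer quasi-likelihood estimates, the compared groups alone, J15 as the only untreated Nj pups, leaving out libraries above 1000 CPM of Ttr, Ttr as a covariate, another prior count (0.5) and leaving out each pup. For pairs of members they also included leaving out the untreated Nj pups and keeping the group means. J13 and J14 as the only untreated Nj pups was added after seeing the data.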

Additional observations from a re-analysis of the deposited data

How the results depend on the processing

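For light, DESeq2 called 1008 genes in Nj pups (611 by edgeR), and 1 member (Nr1d2) and 283 genes in jj pups (25 by edgeR). It called 1 gene in each comparison of jj with Nj pups within a treatment. Light in jj pups gave 3 genes with the compared groups alone and 2 with Ttr as a covariate. Against J13 and J14 pups alone, light called 0 members and 0 genes in Nj pups, 1 member and 168 genes in the average, and jaundice in untreated pups 1 gene; log2 values turned for Bhlhe41 with light in Nj pups (-0.0082) and, in untreated jj over Nj pups, for Nfil3 (0.012), Nr1d1 (-0.054) and Nr1d2 (-0.068). Without libraries above 1000 CPM of Ttr, light called 0 members and 112 genes in Nj pups, 0 genes in jj pups, and 2 members and 424 genes in the average; Bhlhe41 in Nj pups (-0.067), Ciart in jj pups (-0.038) and Pdxk in treated jj over Nj pups (-0.092) turned. Values near 0 also turned for Nfil3 in treated jj over Nj pups (0.000636 at a mean count of 10, 3.88e-05 with newer estimates, 0.000523 by DESeq2), for Hlf with light averaged against J15 (0.0021), and, with Ttr as a covariate, for Arntl with light in jj pups (0.016) and Hlf in treated jj over Nj pups (-0.061). Leaving out 1 pup gave 0 to 4 members and 152 to 651 genes for light in Nj pups (152 without untreated Nj pup 4, 159 without 5, 272 without treated pup 2 and 253 without 5), 0 to 43 genes in jj pups, 1020 to 1697 in the average, and 0 to 1 for jaundice in untreated pups, in treated pups and for the interaction. Over the same fits Hlf ranged from -0.079 to 0.027 with light averaged and from -0.11 to 0.11 in treated jj over Nj pups, Nfil3 from -0.046 to 0.026 in untreated and -0.058 to 0.063 in treated jj over Nj pups, and in jj pups with light Bhlhe40 from -0.067 to 0.0016 and Arntl from -0.061 to 0.0084. The average over genotypes gained Bhlhe41 without untreated jj pup 2 or treated Nj pup 1 or 3, Nfil3 without treated Nj pup 4 (-0.20) and Ciart without treated jj pup 3 (0.26). The cause of these moves was not tested. Of the pairs of members, 11 passed without removing group means. No paired analysis was possible because replicate numbers follow accession order, and no label says that a number in the titles pairs pups of different groups.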
